A study of Homo sapiens with 12 samples.

Results

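Clustered histone genes were described in single-cell RNA sequencing of 3 established head and neck squamous cell carcinoma lines, SCC1, SCC6 and SCC25. Members were all gene symbols that begin with HIST1H, HIST2H, HIST3H or HIST4H, which gave 71 of the 33514 symbols in the count tables. Each line was treated every day with 100 nM cetuximab, an antibody against the epidermal growth factor receptor, or with phosphate-buffered saline (PBS) as the control, for 5 days. With 2 replicates in each of the 6 groups there were 12 samples. Lines in culture hold no stroma or immune cells, and each line stands for 1 tumour, so that differences between lines cannot be told apart from differences between tumours or culture histories. Whether the replicates of a group were separate cultures was not clear from the labels, and p-values therefore measure the spread between these samples only.

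The samples held 961 to 2854 cells and 57057402 to 112170073 unique molecular identifiers (UMIs, 1 per captured transcript). Levels are given as CPM, the UMIs of a gene summed over the cells of a sample and scaled to 1 common library total. Each UMI marks a 3′ end, so CPM was not divided by length, and levels of different genes also depend on how well each 3′ end was captured. In such sums, fewer cells with a transcript and less of it per cell cannot be told apart. The 8 squamous markers summed to between 1004 and 13914 CPM. In SCC6 the defining basal keratins were nearly absent, with KRT5 at 0.967 to 4.57 CPM and KRT14 at 0.379 to 2.58 CPM, while KRT17 stood at 440 CPM or more in all samples. Among the 9 markers of other cell types, PTPRC, CD3E and ALB did not exceed 0.0669 CPM, and the summed level was 10.8 to 30.5 CPM in SCC1 and SCC6 and 135 to 195 CPM in SCC25, of which 116 to 188 CPM was CD68. Between 3 and 10 cell barcodes were shared by replicates and 1 to 13 by samples of different groups.

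Clustered histone genes encode the linker histone H1 and the core histones H2A, H2B, H3 and H4, and lie together in a few genomic clusters. Most of their transcripts are made in S phase to package newly replicated DNA. They end at a conserved stem-loop, bound by the protein SLBP, in place of a poly(A) tail. Some of these genes can also give longer transcripts that pass the stem-loop and are polyadenylated, mainly in cells that have left the cell cycle. The libraries here were primed on poly(A), so the form of the 3′ end bears on which members were seen.

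The stem-loops of the members the results turn on are shown for that reason, as read 5′ to 3′ on the sense strand of annotated GENCODE transcripts lifted to GRCh37, in DNA letters. Capitals mark the 16-base stem-loop, and the first and last 5 bases are its flanks.
HIST1H4C: ccaaaGGCCCTTTTCAGGGCCgctca
HIST1H4H: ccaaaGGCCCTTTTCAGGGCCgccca
HIST1H1A: ccaacGGCTCTTTTAAGAGCCaccta
HIST1H1D: taaacGGCTCTTTTCAGAGCCaccca
HIST2H2AC: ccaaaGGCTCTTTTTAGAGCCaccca
HIST1H2AC: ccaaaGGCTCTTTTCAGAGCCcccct
HIST1H2BD: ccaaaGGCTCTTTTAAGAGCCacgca
HIST2H2BE: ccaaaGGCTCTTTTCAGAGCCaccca
The stem-loop itself was close to identical among them, and what differed was how the annotated transcripts ended. The only annotated transcript of HIST1H4C (H4C3, chr6:26103933-26104337, GRCh38.p14) ended 5 bases after its stem-loop. The H4 gene HIST1H4H had a transcript that ended as close to it and 2 longer ones that went on for 630 and 1655 bases. The only transcript of the H2B gene HIST2H2BE, of 2224 bases, went on for 1729 bases past the stem-loop and carried a poly(A) signal near its end. In the HIST1H2BD transcript with such a signal, of 789 bases, no stem-loop was found.

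Of the 71 members, 68 were matched to annotated transcripts. A transcript that ended within 15 bases of a stem-loop was annotated for 63 members, and a transcript with AATAAA or ATTAAA in its last 40 bases, taken here as a poly(A) signal, for 18. For 1 of them, HIST1H4J, the match lay in a transcript that ended 6 bases after the stem-loop. The other 50 matched members had no transcript with that signal. A signal in an annotated transcript is a description of the gene model and does not say that the transcript was made in these lines.

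Many members were found by poly(A) capture, but nearly all at low levels. At least 1 UMI was counted for 65 members, and HIST2H3A, HIST2H3C, HIST1H2BA, HIST1H3D, HIST1H4G and HIST1H4K were at 0 in all samples. Averaged over the 12 samples, 1 member stood above 100 CPM, 14 stood at 10 to 100 CPM, 16 at 1 to 10 CPM and 34 below 1 CPM with at least 1 UMI. The median of the 71 members was 0.583 CPM. By class, 5 of 6 H1 genes, 8 of 17 H2A genes, 10 of 18 H2B genes, 3 of 15 H3 genes and 5 of 15 H4 genes reached 1 CPM. The 18 members with a poly(A) signal transcript had a median of 3.77 CPM and 13 of them reached 1 CPM. The 50 members without one had a median of 0.273 CPM and 16 of them reached 1 CPM. Histone genes of 1 class are nearly identical in coding sequence, and how reads shared by such copies were counted was not given, so single members, above all of H3 and H4, are uncertain.

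HIST1H4C, an H4 gene without an annotated poly(A) signal, was far above every other member. It ranked 180 among all genes by mean level and held 62.1% of all member UMIs, from 31.6% to 78.9% by sample. In SCC1 its level was 1201 and 814 CPM in PBS replicates 1 and 2 and 418 and 417 CPM in the cetuximab replicates. In SCC6 it was 1041 and 931 CPM with PBS and 1470 and 953 CPM with cetuximab. In SCC25 it was 1060 and 462 CPM with PBS and 670 and 292 CPM with cetuximab. Both cetuximab samples lay below both PBS samples in SCC1, whereas the groups overlapped in SCC6 and in SCC25, where replicate 1 was the higher in each group.

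**Figure D1:**
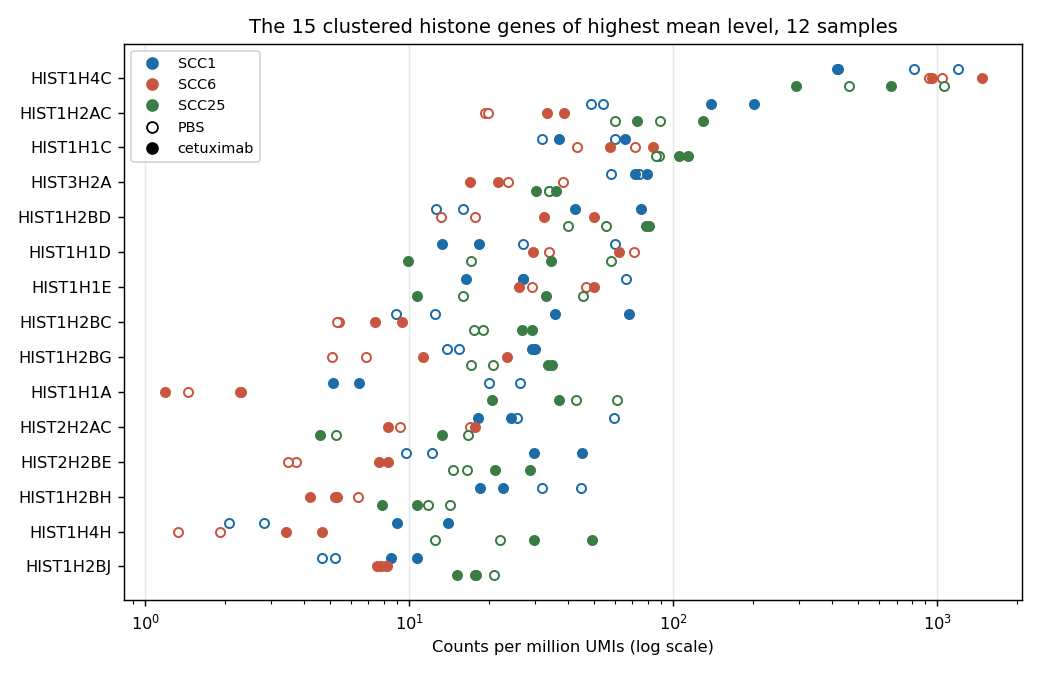
Level in CPM (log axis) of the 15 members with the highest mean, 1 point per sample, with colours for the lines, open circles for PBS and filled circles for cetuximab. HIST1H4C lies between 292 and 1470 CPM, and HIST1H2AC, next in order, between 19.3 and 202 CPM.

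The next members in order of mean level were HIST1H2AC at 75.5 CPM, the linker histone gene HIST1H1C at 70.3 CPM, HIST3H2A at 43.1 CPM, HIST1H2BD at 42.9 CPM, and the linker histone genes HIST1H1D at 36.2 CPM and HIST1H1E at 32.8 CPM. The SD over the 12 samples was 55.4 CPM for HIST1H2AC and 26.1 CPM for HIST1H1C, which includes differences between lines and treatments. The order of such neighbours was not tested. Summed by class, H4 members reached 836 CPM on average, H1 members 166 CPM, H2A members 154 CPM, H2B members 142 CPM and H3 members 12.1 CPM. Nucleosomes hold core histones in equal numbers, and the captured H3 and H4 levels were far from equal. Without HIST1H4C the remaining 14 H4 members summed to 25.2 CPM.

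The members were then compared between cells within each sample, to see which of them moved with S phase. Cells were scored by the UMIs of 39 S-phase genes at 15000 UMIs per cell, and no clustered histone gene was in the score. The 10% of cells with the highest score in a sample, ties included, were taken as S-high, and cells at or below the median of both this score and one of 51 G2 and mitosis genes as S-low. These classes are ranges of a score and not cell types, and between 8 and 93 cells per sample lay within 1 UMI of the limit. No test was made, because cells of 1 sample are not replicates.

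Members did not share 1 direction. Of the 40 members at 0.5 CPM or more, 17 (42.5%) were higher in S-high cells in 12 of 12 samples, against 16.9% of 13870 genes at the same level. Another 6 (15%) were lower in S-high cells in 12 of 12 samples, a share not far above the 11.4% of genes. The first, called the S-high group here, held the linker histone genes HIST1H1A, HIST1H1B, HIST1H1D and HIST1H1E, the H2A genes HIST2H2AC and HIST1H2AJ, HIST1H2BH, the H3 genes HIST1H3C, HIST1H3F and HIST1H3G, and HIST1H4C. The second, called the S-low group, was HIST1H2AC, HIST1H2BC, HIST1H2BD, HIST2H2BE, HIST1H3E and HIST3H2A. None of the 17 had an annotated transcript with a poly(A) signal, and 6 of the 6 had one, as did 9 of the 17 members with a mixed direction.

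The largest ratio was that of HIST1H1A, whose log2 ratio of S-high over S-low cells was 5.26 ± 0.93 (mean ± SD, n = 12 samples). It was 4.48 ± 0.86 for HIST1H1B, 3.76 ± 0.75 for HIST1H1D and 2.51 ± 0.49 for HIST2H2AC. HIST1H4C had a ratio of 3.22 ± 0.69, with 2145 CPM in S-high and 330 CPM in S-low cells of SCC1 PBS replicate 1, and 1021 against 52.5 CPM in SCC25 cetuximab replicate 2. Against all cells outside the top 10%, the HIST1H4C ratio was 1.43. In the opposite direction the log2 ratio was -2.99 ± 0.83 for HIST1H2AC, -2.79 ± 0.72 for HIST1H2BD and -2.63 ± 0.95 for HIST2H2BE. HIST1H2AC was at 8.41 CPM in S-high and 132 CPM in S-low cells of SCC1 PBS replicate 1. HIST1H1C, the third member in order of level, showed no common direction, with 0.25 ± 1.05 and a range of -1.62 to 1.44.

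**Figure D2:**
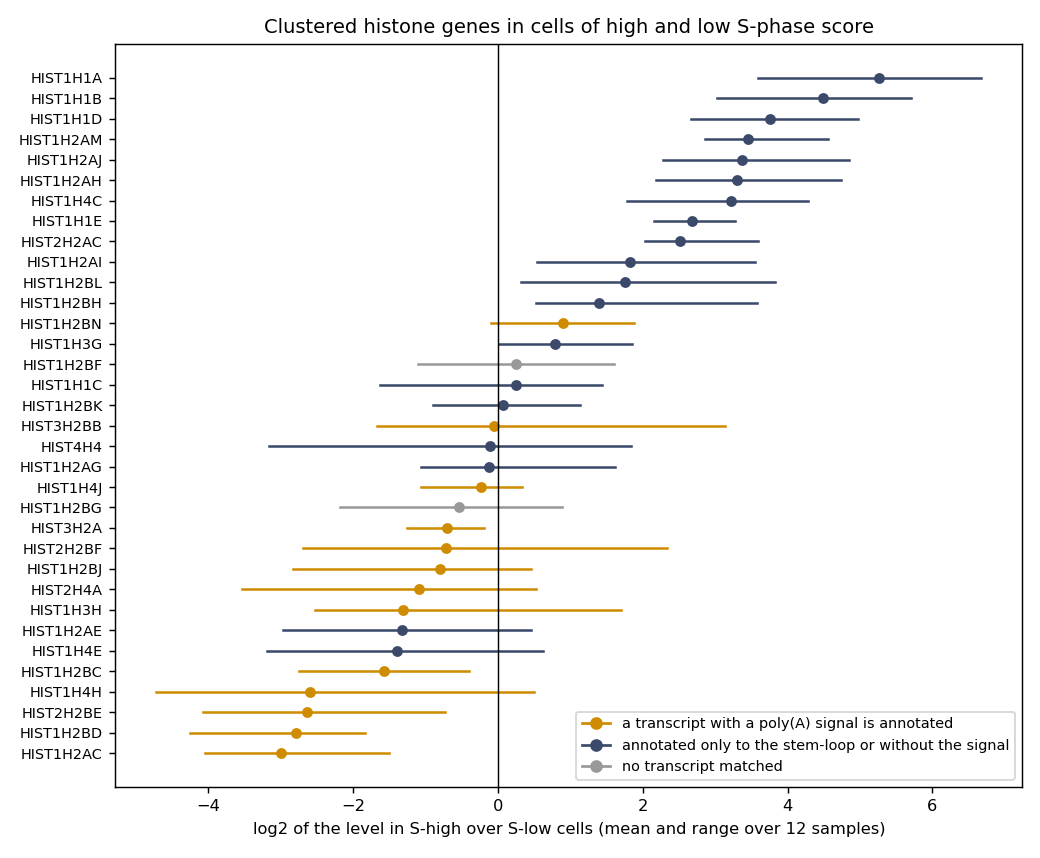
Log2 ratio of the level in S-high over S-low cells, as the mean (point) and range (line) over 12 samples, for the 34 members with UMIs enough for a ratio in all samples; colour gives the annotation of a poly(A) signal. Members annotated with the signal lie mostly left of 0 and HIST1H1A, HIST1H1B and HIST1H1D furthest right.

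Ratios for G2 and mitosis took the same direction for the leading members. In the top 10% of cells by that score, the log2 ratio over S-low cells was 3.76 ± 1.57 for HIST1H1A, 2.17 ± 0.77 for HIST1H4C, -2.15 ± 0.88 for HIST1H2BD and -2.69 ± 1.08 for HIST1H4H. The S-high and G2-high classes shared 0 to 31 cells per sample. Cell by cell at 15000 UMIs and on a log2(UMI + 1) scale, HIST1H4C correlated with the S score at r = 0.443 to 0.668 over the 12 samples, and HIST1H2AC at r = -0.651 to -0.226. These correlations are across cells of 1 library that share depth, and are given as a description.

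HIST1H4C was counted in most cells. At 15000 UMIs per cell, 95.6% (95% exact binomial interval 94.2 to 96.6) and 93.4% of SCC1 cells had at least 1 HIST1H4C UMI with PBS, and 79.2% and 81.2% with cetuximab. In SCC6 the share was 97.1% and 94.7% with PBS and 98.6% and 94.8% with cetuximab. In SCC25 it was 91.6% and 74.3% with PBS and 82.2% and 61.2% (59.0 to 63.3) with cetuximab. PTPRC, CD3E, ALB and HBB, which these cells should lack, had a UMI in 0.137% of cells or fewer in every sample at the same depth. As no cell of these cultures makes them, they do not bound the HIST1H4C UMIs that free RNA of other cells could add, which was not tested. Without thinning the HIST1H4C share was 84.6% to 98.5%. The share was lower with cetuximab by 8.24 percentage points on average over the lines, which did not pass an exact two-sided permutation test within lines (p = 0.102, where the smallest possible was 0.00926). The difference was -3.77 percentage points without thinning (p = 0.0926) and -15.0 points for cells with at least 3 UMIs (p = 0.111) in the same exact test. Within SCC1 it was lower in both cetuximab samples, and in SCC6 the groups overlapped. A few cells held much of the RNA, since the top 10% of cells by HIST1H4C held 31.7% to 66.7% of HIST1H4C UMIs, and the median cell had 1 to 10 of them.

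Gene position was set beside these groups because H2A and H2B genes often lie head to head and share 1 promoter region. There were 12 head-to-head pairs of members with starts within 500 bases. In the HIST2 cluster, HIST2H2BE and HIST2H2AC start 236 bases apart, and their mean levels were 16.7 and 18.3 CPM. Their S-phase log2 ratios were -2.63 and 2.51, so that genes that share 1 promoter region lay in opposite groups. In the HIST1 cluster, HIST1H2BC and HIST1H2AC start 246 bases apart and were both in the S-low group, at 20.4 and 75.5 CPM. HIST3H2A was at 43.1 CPM and HIST3H2BB, which starts 230 bases away, at 0.979 CPM, with HIST3H2A higher in 12 of 12 samples.

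Promoters of 66 members, from 250 bases before to 50 bases after the start (RefSeq, GRCh38.p14), were searched on both strands for the octamer ATTTGCAT, known from H2B promoters, for CCAAT and for TATAAA. The octamer was in 14 of 18 H2B and 11 of 16 H2A promoters, in 1 of 13 H3 promoters and in no H1 or H4 promoter, against 1.80% of all 27305 promoters. An octamer between head-to-head genes can lie in both promoters and was then counted for each. CCAAT was in 100% of H1, H2A, H2B and H3 promoters given, in 3 of 13 H4 promoters and in 35.7% of all promoters. TATAAA was found in 11 of 13 H3, 12 of 16 H2A, 12 of 18 H2B, 7 of 13 H4 and 3 of 6 H1 promoters. Of all promoters 11.95% held it. The sites of 5 H2B members that moved in different directions are shown, 30 bases each with the octamer in capitals, on the strand of the gene.
HIST2H2BE (chr1:149886710-149886739, minus strand): tcggagccctaATTTGCATaaggtggttat
HIST1H2BC (chr6:26124031-26124060, minus strand): tttcatacctcATTTGCATagctctgccca
HIST1H2BG (chr6:26216718-26216747, minus strand): ttgaattctttATTTGCATgaaaggcctat
HIST1H2BH (chr6:26251554-26251583, plus strand): attaagcacctATTTGCATaaaagacctac
HIST1H2BJ (chr6:27132824-27132853, minus strand): ctcttcaccttATTTGCATaagcgattcta
HIST1H2BH was in the S-high group and HIST2H2BE and HIST1H2BC in the S-low group, although all 3 held the octamer. It was in 5 of 15 promoters given for the S-high group and in 3 of 6 of the S-low group. A match is a match of letters only and is not shown to be bound.

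To ask how the members differed between lines, PBS samples were compared with edgeR's quasi-likelihood test on sums per sample, with Benjamini-Hochberg adjustment over 17897 genes. The filter on low counts was passed by 57 members. Between SCC6 and SCC1, 10 of the 57 differed, with 3 higher and 7 lower in SCC6. Of all genes 40.2% differed, 21.5% higher and 18.6% lower. With the replicate number as a block, 20 members differed, against 53.8% of genes. In SCC25, 14 were higher and 2 lower than in SCC1, where 40.8% of genes differed (23.4% higher, 17.3% lower). Against SCC6, 16 were higher in SCC25 and 0 lower, where 40.9% of genes differed (22.2% higher, 18.7% lower). Counts for SCC25 are without the block. With the block more members were called in both comparisons, among them HIST1H2BE higher than in SCC1 (adjusted p = 0.00703) and HIST1H2BN higher than in SCC6 (0.0332). HIST1H1D and HIST1H1E were then called lower than in SCC6. The share of members called was below that of all genes in each comparison, which is a description with no test of the list. The comparisons share samples, since each line enters more than 1 of them.

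The linker histone gene HIST1H1A differed most. It was at 26.3 and 20.1 CPM in SCC1, 1.45 and 2.30 CPM in SCC6, and 61.0 and 42.7 CPM in SCC25, and the lines did not overlap. The log2 difference of SCC25 minus SCC6 was 4.64 ± 0.42 (SE), with an adjusted p of 2.2e-05, and that of SCC6 minus SCC1 was -3.29 ± 0.39 (adjusted p = 0.000114). No other H1 gene was called between SCC6 and another line in the fit without the block, and HIST1H1D stood at 70.8 and 33.7 CPM in SCC6, 60.0 and 26.9 CPM in SCC1 and 58.1 and 17.1 CPM in SCC25. With the block HIST1H1D (adjusted p = 0.0363) and HIST1H1E (0.0393) were called lower in SCC25 than in SCC6, and HIST1H1C (0.0401) higher in SCC6 than in SCC1. Without the block the first 2 differences turned to 0.032 when SCC6 PBS replicate 1 was left out and to 0.047 when SCC25 PBS replicate 2 was. The H2A gene HIST2H2AC, at 59.6 and 25.6 CPM in SCC1, 16.9 and 9.22 CPM in SCC6 and 16.6 and 5.26 CPM in SCC25, was lower in SCC25 than in SCC1 by a log2 difference of -1.85 ± 0.25 with the block (adjusted p = 0.000168, and 0.0528 without in edgeR and 0.0177 in DESeq2).

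HIST1H4H was highest in SCC25, at 12.5 and 22.0 CPM, against 2.82 and 2.07 CPM in SCC1 and 1.33 and 1.93 CPM in SCC6. Its log2 difference of SCC25 minus SCC1 was 3.04 ± 0.40 (adjusted p = 0.000257) and that of SCC25 minus SCC6 was 3.29 ± 0.41 (adjusted p = 0.000169). HIST1H2BJ was lowest in SCC1, at 5.21 and 4.66 CPM, with 8.20 and 7.83 CPM in SCC6 and 20.9 and 17.7 CPM in SCC25. The difference of SCC25 minus SCC1 was 2.16 ± 0.20 on the log2 scale (adjusted p = 2.9e-05). HIST1H2BH was highest in SCC1, with 44.8 and 31.8 CPM in SCC1, 5.33 and 6.38 CPM in SCC6 and 14.3 and 11.7 CPM in SCC25, and SCC6 minus SCC1 was -2.37 ± 0.25 (adjusted p = 4.8e-05). HIST2H2BE was low in SCC6, with 3.74 and 3.48 CPM against 12.2 and 9.68 CPM in SCC1 and 14.7 and 16.5 CPM in SCC25, and its difference of SCC25 minus SCC6 was 1.97 ± 0.26 (adjusted p = 0.000237).

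The most abundant member did not separate the lines. For HIST1H4C the log2 difference was 0.32 ± 0.42 for SCC6 minus SCC1 (adjusted p = 0.579), -0.22 ± 0.42 for SCC25 minus SCC1 (adjusted p = 0.705) and -0.54 ± 0.42 for SCC25 minus SCC6 (adjusted p = 0.334). HIST1H1C was higher in SCC25 than in SCC1 by 1.14 ± 0.37 (adjusted p = 0.0304), at 88.3 and 85.9 CPM against 60.1 and 31.7 CPM, a call that was lost without SCC1 PBS replicate 2 or without either SCC25 PBS replicate.

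To ask how cetuximab changed the members, treated and control samples were compared within each line and across lines. The summed level of all members was lower in both replicate pairs of SCC1, going from 1783 and 1187 CPM to 1163 and 962 CPM, and higher in both pairs of SCC6, going from 1408 and 1181 CPM to 1932 and 1243 CPM. In SCC25 it went from 1668 and 969 CPM to 1303 and 925 CPM. These are sums with no test, in CPM that do not hold the TMM factors by which the tests scaled library totals. In SCC6 these factors were 0.835 and 0.894 with PBS and 1.022 and 1.005 with cetuximab. They lower cetuximab relative to PBS there, by more than the rise seen in replicate 2. Without HIST1H4C, the direction turned in SCC1 and SCC25 and stayed in SCC6, so that the sum was higher with cetuximab in 6 of 6 pairs. The log2 differences of replicates 1 and 2 were then 0.35 and 0.55 for SCC1, 0.33 and 0.22 for SCC6, and 0.06 and 0.32 for SCC25.

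In CPM, the summed level of members annotated with a poly(A) signal was higher with cetuximab in every pair. That of the other members besides HIST1H4C was lower in SCC1 and SCC25 and slightly higher in SCC6. The rise in SCC6 was smaller than the shift from the TMM factors there, so its direction depends on the scaling. The 18 members with the signal summed to 196 and 162 CPM in SCC1 PBS samples and to 517 and 368 CPM with cetuximab. In SCC6 this sum went from 107 and 93.4 CPM to 166 and 125 CPM, and in SCC25 from 229 and 277 CPM to 312 and 393 CPM. It was thus higher in each of 6 pairs and, in CPM without the TMM factors, did not overlap in any line. The 49 matched members other than HIST1H4C without the signal went from 371 and 195 CPM to 195 and 147 CPM in SCC1. They stood at 254 and 149 CPM and then 272 and 153 CPM in SCC6, and at 356 and 213 CPM and then 285 and 206 CPM in SCC25. By class, the H2B sum was higher in 6 of 6 pairs, going from 119 and 95.6 CPM to 265 and 185 CPM in SCC1, while the H1 sum went from 229 and 113 CPM to 120 and 75.7 CPM there.

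Over the same samples the S-phase and G2 and mitosis scores also moved. For the 39 S-phase genes the log2 difference in the summed level was -1.02 and -0.41 for the pairs of SCC1, -0.19 and 0.01 for those of SCC6, and -0.05 and -0.43 for those of SCC25. For the 51 G2 and mitosis genes it was -1.13 and -0.59 for SCC1, 0.00 and -0.41 for SCC6, and -0.15 and -0.39 for SCC25. Their part in the changes of the members was not tested.

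In SCC1 the test without the replicate number called 0 members (0.0168% of all genes). An unadjusted p under 0.05 was found for 14 of 57 members and 1570 of 17897 genes, and DESeq2 called 11 members (1.53% of genes). Samples with equal replicate numbers deviated together in each line. With the number as a block 18 of 57 members were called (4.45% of genes), 9 higher (2.46% of genes) and 9 lower (1.99% of genes). Of the 9 that rose, 8 had an annotated poly(A) signal transcript, the exception being HIST1H2AE, and 0 of the 9 that fell had one. The block leaves 3 residual degrees of freedom. With all samples and the low-count filter, no edgeR fit without the block called a member in SCC1. With no low-count filter and no block, edgeR called 10 of 65 members, 7 higher and 3 lower. Of all 25899 genes it then called 243, with 197 higher and 46 lower. Without a block, DESeq2 also called HIST1H2BC, HIST1H2BD, HIST2H2BE, HIST1H2AC, HIST1H4H, HIST1H3E and HIST1H1A, but not HIST1H4C, HIST1H1B, HIST1H1D or HIST1H1E.

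The 9 members that rose in SCC1 included 4 H2B genes. HIST1H2BC went from 12.5 and 8.93 CPM to 67.7 and 35.6 CPM, a log2 change of 2.23 ± 0.29 without (adjusted p = 0.0661) and 2.17 ± 0.17 with the block (adjusted p = 0.00192). HIST1H2BD went from 16.01 and 12.6 CPM to 75.5 and 42.5 CPM (adjusted p = 0.0878 without and 0.0105 with the block). HIST2H2BE went from 12.2 and 9.68 CPM to 45.2 and 29.7 CPM (adjusted p = 0.0661 and 0.00247). Among other classes, the H2A gene HIST1H2AC went from 54.2 and 48.8 CPM to 202 and 139 CPM (log2 change 1.65 ± 0.15 with the block, adjusted p = 0.00273, and 0.132 without). HIST1H4H went from 2.82 and 2.07 CPM to 14.04 and 8.96 CPM (2.17 ± 0.21, adjusted p = 0.0036, and 0.119 without). The H3 gene HIST1H3E went from 0.672 and 0.598 CPM to 3.65 and 2.26 CPM (2.12 ± 0.35, adjusted p = 0.0175, and 0.0969 without). None of these overlapped between groups.

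The members that fell in SCC1 included 4 of the 6 linker histone genes. HIST1H1A fell by 2.04 ± 0.30 on the log2 scale with the block (adjusted p = 0.0142, and 0.129 without), from 26.3 and 20.1 CPM to 5.14 and 6.46 CPM. HIST1H1B fell by 1.70 ± 0.22 (adjusted p = 0.0101, and 0.644 without), HIST1H1D by 1.41 ± 0.16 (0.00651 and 0.609) and HIST1H1E by 1.06 ± 0.15 (0.0142 and 0.699). HIST1H4C fell by 1.29 ± 0.14 (adjusted p = 0.00523), against 1.31 ± 0.42 without the block (adjusted p = 0.378). HIST1H1C was not called, at 60.1 and 31.7 CPM with PBS and 65.7 and 36.8 CPM with cetuximab. Without regard to a test, groups did not overlap for 16 members that were higher (28.1%, against 24.7% of genes) and 22 that were lower (38.6%, against 17.3% of genes).

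**Figure D3:**
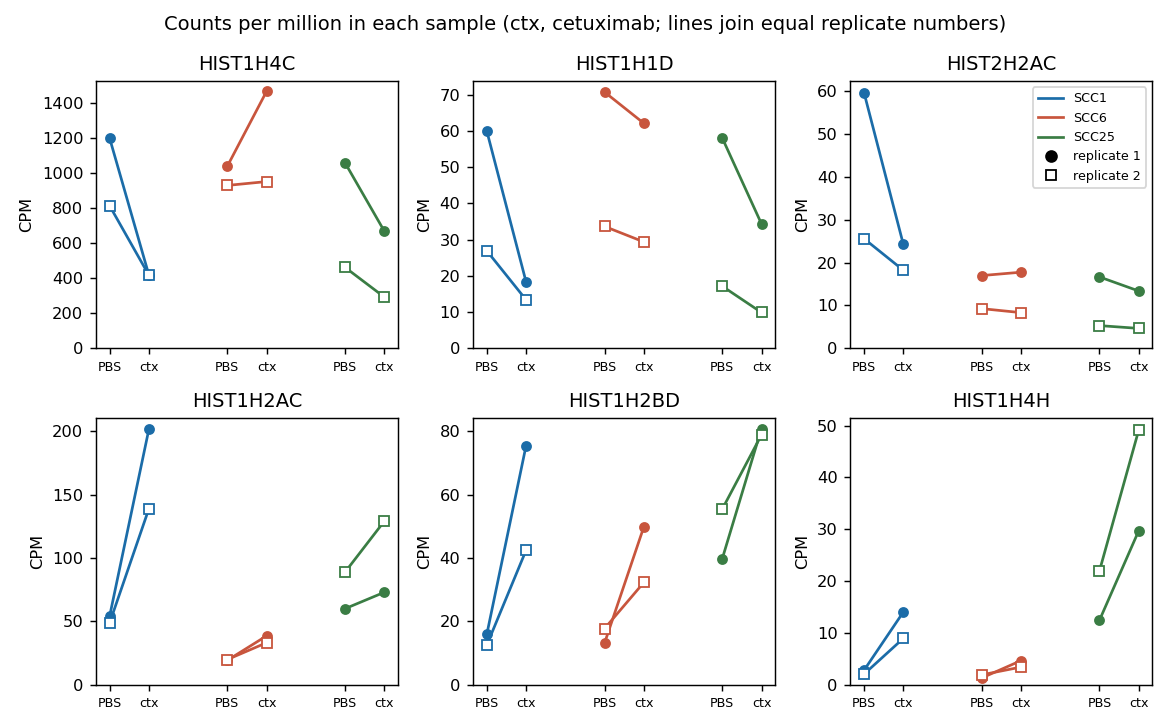
Level in CPM on linear axes from 0, with 1 panel for each of 6 members and a line from the PBS to the cetuximab sample of equal replicate number. HIST1H4C, HIST1H1D and HIST2H2AC fall in SCC1, HIST1H2AC, HIST1H2BD and HIST1H4H are higher with cetuximab in each of 6 pairs, and replicate 1 starts higher than replicate 2 for the top 3.

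Levels in SCC1 were also set out by score range. With 1 limit for all SCC1 samples, above which 10% of the PBS cells lay (66 UMIs of the S-phase genes at 15000 UMIs per cell), HIST1H4C in cells above it stood at 2084 and 1667 CPM with PBS and 1469 and 949 CPM with cetuximab. In cells below it, HIST1H4C stood at 1131 and 680 CPM with PBS and 349 and 357 CPM with cetuximab. HIST1H2AC below the limit went from 58.1 and 55.5 CPM to 214 and 154 CPM. The share of cells above the limit was 7.24% and 12.2% with PBS and 5.76% and 10.0% with cetuximab. The distribution of scores within each side was not matched. The median SCC1 cell had 26 and 27 S-phase UMIs with PBS and 6 and 12 with cetuximab, all far below the limit. The part of these scores in the change of level was not tested.

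In SCC6, 1 member, HIST1H2BG, was called without the block (3.81% of genes, 2.51% higher and 1.3% lower), with a log2 change of 1.31 ± 0.30 (adjusted p = 0.0428) from 5.09 and 6.85 CPM to 23.5 and 11.2 CPM. The call was lost without cetuximab replicate 1 or without either PBS replicate. DESeq2 called 5 (9.34% of genes). With the block 11 members were called (20.1% of genes), 7 higher (9.94% of genes) and 4 lower (10.1% of genes), a share close to that of all genes. Those that rose included HIST1H2BD, from 13.2 and 17.8 CPM to 49.8 and 32.3 CPM (adjusted p = 0.0169, and 0.0686 without the block), and HIST2H2BE, from 3.74 and 3.48 CPM to 8.29 and 7.65 CPM (0.00546 and 0.0763). HIST1H2AC went from 19.3 and 19.9 CPM to 38.6 and 33.2 CPM (0.0216 and 0.284). Those that fell were HIST3H2A, HIST3H2BB, HIST2H2BF and HIST1H3J, of which 3 have an annotated poly(A) signal. HIST3H2A went from 38.3 and 23.6 CPM to 21.6 and 17.0 CPM, a log2 change of -0.88 ± 0.16 (adjusted p = 0.00955, and 0.0832 without the block). HIST3H2BB rested on 1 sample, with 2.42 and 0.253 CPM with PBS and 0.618 and 0.222 CPM with cetuximab, and its log2 change without the block was 0.53 when PBS replicate 1 was left out, as that of HIST2H2BF was 0.25. Neither HIST1H4C (log2 change 0.06 ± 0.42, adjusted p = 0.971) nor any of the linker histone genes was called in SCC6. Groups did not overlap for 12 members that were higher (21.1%, against 37.4% of genes) and 6 that were lower (10.5%, against 11.6% of genes).

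In SCC25 no member was called without the block (0% of genes). An unadjusted p under 0.05 was found for 5 of 57 members and 1041 of 17897 genes, and DESeq2 called 0 members (0.564% of genes). With the block HIST1H4H was called (0.978% of genes, 0.771% higher and 0.207% lower), from 12.5 and 22.0 CPM to 29.7 and 49.1 CPM, a log2 change of 1.18 ± 0.19 (adjusted p = 0.0389, and 0.64 without). For HIST1H4C the log2 change was -0.69 ± 0.14 with the block (adjusted p = 0.071) and -0.68 ± 0.42 without (adjusted p = 0.946). It was lower by 0.66 in both pairs, although the groups overlapped. Groups did not overlap for 8 members that were higher (14%, against 16.3% of genes) and 4 that were lower (7.02%, against 12.9% of genes).

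**Figure D4:**
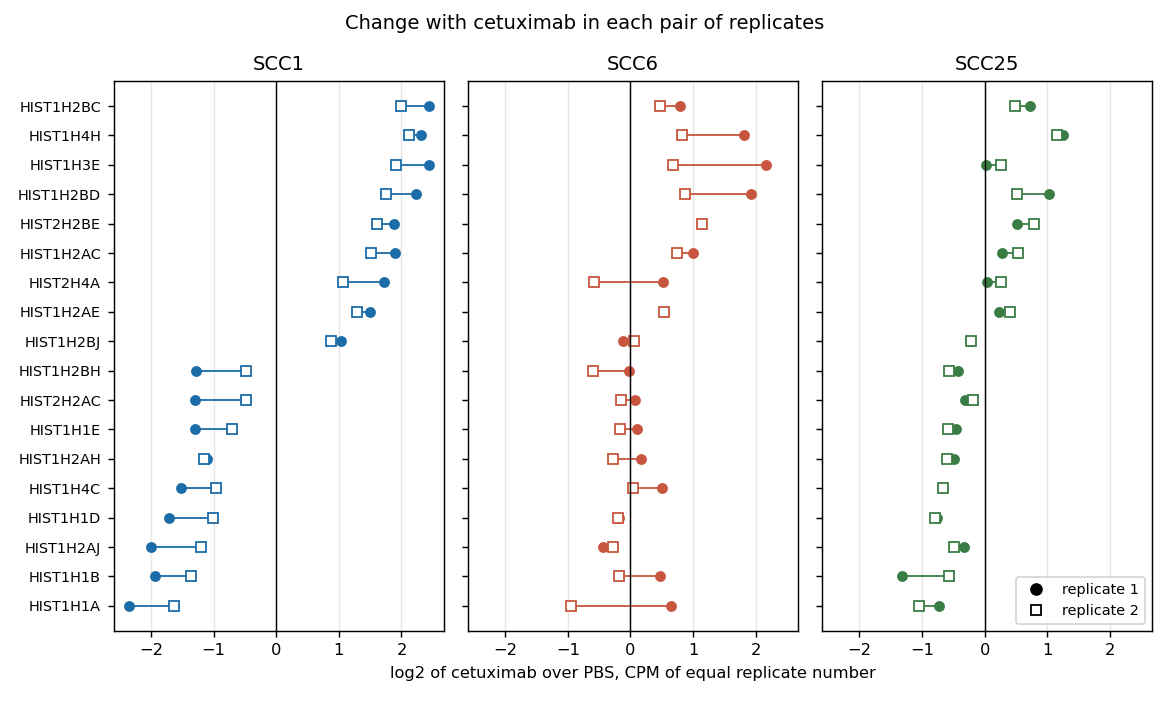
Log2 of cetuximab over PBS for each pair of equal replicate number (filled circle replicate 1, open square replicate 2) in SCC1, SCC6 and SCC25, for the 18 members called in SCC1 with the block. The SCC1 values lie on 1 side of 0 for every member, as the choice of members makes likely, while in SCC6 several cross 0.

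Across the lines, 5 members were called without the block (3.67% of genes), 4 higher (2.53% of genes) and 1 lower (1.13% of genes). HIST1H4H rose by 1.47 ± 0.25 on the log2 scale (adjusted p = 0.0134) and HIST1H2BD by 1.29 ± 0.23 (adjusted p = 0.0154), and both were higher in 6 of 6 pairs. HIST2H2BE rose by 1.09 ± 0.19 (adjusted p = 0.0141) and HIST1H2BG by 1.03 ± 0.17 (adjusted p = 0.0116). HIST1H2BH, an H2B gene of the S-high group, fell by 0.66 ± 0.14 (adjusted p = 0.0243). The 4 rises were called in each of 18 alternatives, and the fall was lost in 5 of them, each without 1 sample. DESeq2 called 11 (9.9% of genes). With the block 19 members were called (11.6% of genes), 6 higher (6.03% of genes) and 13 lower (5.55% of genes), and 0 of the 13 had an annotated poly(A) signal. Those added by the block included HIST1H1A (log2 change -1.14, adjusted p = 0.0397), HIST1H1D (-0.88, 0.0167) and HIST1H1E (-0.62, 0.0278), and HIST1H2AC on the other side (0.89, 0.0304). HIST1H4C was not among them (log2 change -0.65 ± 0.20, adjusted p = 0.0698).

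By their S-phase groups, the 17 S-high members had a negative log2 change in 17 of 17 cases in SCC1 (median -1.05), in 13 of 17 in SCC6 (median -0.28) and in 17 of 17 in SCC25 (median -0.68). The 6 S-low members had a positive change in 6 of 6 cases in SCC1 (median 1.86), and in 5 of 6 in SCC6 (median 0.77) and SCC25 (median 0.49), the exception being HIST3H2A. The median over all genes tested was 0.00 in SCC1 and SCC6 and -0.01 in SCC25. The 7 members listed for polyadenylated transcripts known from earlier work (HIST1H1C, HIST1H2AC, HIST1H2BC, HIST1H2BD, HIST1H2BJ, HIST1H2BK and HIST2H2BE) had 5 rises and 0 falls in SCC1 (2.46% of genes rose) and 3 rises and 0 falls in SCC6 (9.94% of genes rose) with the block, and none in SCC25 (0.771%). The S-phase groups were formed on the same samples, and the medians carry no test.

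An interaction test asked if the change with cetuximab was unequal among the lines. Without the block 0 members passed (0% of genes). An unadjusted p under 0.05 was found for 8 of 57 members and 1318 of 17897 genes, and DESeq2 called 3 members (1.54% of genes). With the block 4 members passed (1.29% of genes): HIST1H2BC (adjusted p = 0.0255), HIST1H4C (0.0405), HIST1H2BJ (0.0444) and HIST1H2AC (0.0479).

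Replicates differed in the members in a common direction. In 6 of 6 groups 20 of the 57 members (35.1%) were higher in replicate 1, against 14.8% of genes, and 0 members were higher in replicate 2 in 6 of 6 groups, against 12.4% of genes. The mean log2 ratio of replicate 1 over replicate 2 was 1.48 for HIST1H1B, 1.22 for HIST1H1D, 1.12 for both HIST1H1E and HIST2H2AC, and 0.62 for HIST1H4C, but -0.09 for HIST1H2AC and 0.15 for HIST1H2BD. In SCC25 PBS samples HIST1H1B was at 19.3 and 2.78 CPM. For HIST1H1B and HIST1H1D the mean ratio between replicates was about as large as the fall with cetuximab in SCC1. For HIST1H1E and HIST2H2AC it was larger in size than that change (log2 -1.06 and -0.94 with the block). It was smaller for HIST1H4C (change -1.29), and for HIST1H1A (ratio 0.28, change -2.04). Median UMIs per cell differed between replicates as well, most in SCC6 cetuximab samples, with 24079 and 50156, and its part was not tested.

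**Figure D5:**
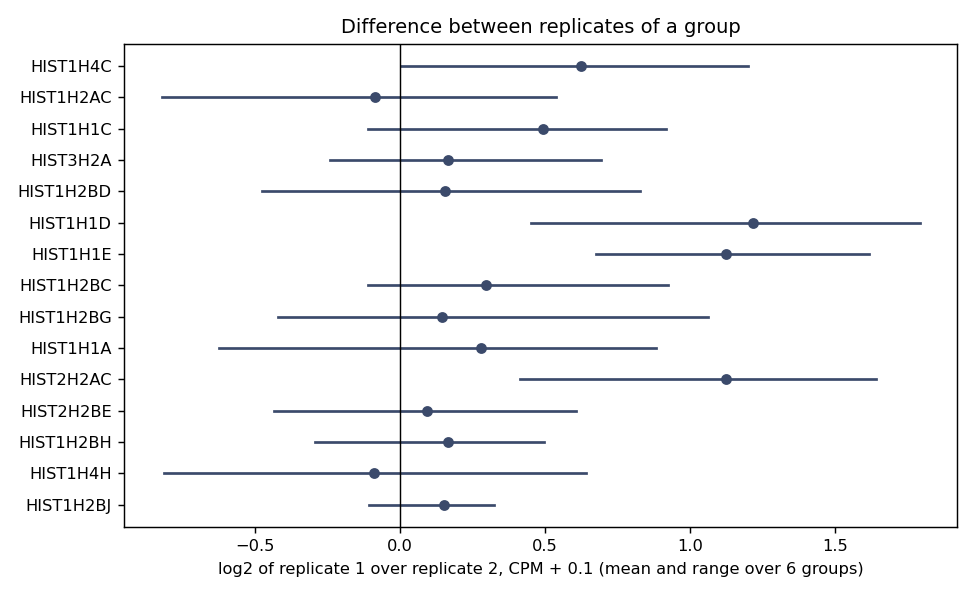
Log2 of replicate 1 over replicate 2 (CPM + 0.1), as the mean (point) and range (line) over 6 groups, for the 15 members of highest mean level. HIST1H1D, HIST1H1E and HIST2H2AC lie wholly right of 0, with HIST1H4C from near 0 to 1.20, while HIST1H2AC and HIST1H4H lie on both sides.

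Other genes of histone supply were taken from lists. Replacement histones are made mostly from polyadenylated transcripts and not only in S phase. They ranged in mean level from 10.6 CPM for H2AFY2 to 1343 CPM for H3F3B. H3F3B, H3F3A (1254 CPM) and H2AFZ (1005 CPM) stood above HIST1H4C. Of 11 tested, 0 were called without the block within any line or across lines. An unadjusted p under 0.05 was found for 5, 2, 0 and 4 of them in SCC1, SCC6, SCC25 and across lines. In the same order, 1570, 3561, 1041 and 3757 of 17897 genes had such a p. DESeq2 called 2, CENPA and H2AFZ, across lines. With the block 4 fell in SCC1, the centromeric CENPA by 1.31 ± 0.26 (adjusted p = 0.0301), H2AFZ by 0.95 ± 0.16 (0.0181), H2AFX by 0.92 ± 0.20 (0.0412) and H2AFV by 0.76 ± 0.13 (0.0233), and in SCC6 H3F3A and H2AFY2 rose.

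Of 16 genes for histone mRNA processing and transcription, 0 were called without the block in any cetuximab comparison, with an unadjusted p under 0.05 for at most 2, and DESeq2 called ERI1 in SCC6. With the block ERI1, an exonuclease that trims histone 3′ ends, fell in SCC6 (log2 change -0.84 ± 0.20, adjusted p = 0.0242) and CPSF3, the endonuclease that cuts them, across lines (-0.38 ± 0.10, 0.0444). SLBP, the stem-loop binding protein, was at 166 and 149 CPM with PBS and 120 and 136 CPM with cetuximab in SCC1 and was not called (-0.35 ± 0.15 with the block, adjusted p = 0.245). Of 16 histone chaperones, 0 were called without the block, with an unadjusted p under 0.05 for 6, 1, 0 and 6 in the order above, and DESeq2 called 3 across lines. With the block ASF1B (-1.001 ± 0.19, adjusted p = 0.0276) and NAP1L1 (-0.64 ± 0.12, 0.0254) fell in SCC1, 3 fell and 1 rose in SCC6, and 7 fell across lines.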

How the data were processed

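Tumour cell lines were profiled with a droplet kit that primes on poly(A) and reads transcript 3′ ends. Per the submitters' processing notes the authors aligned reads to GRCh38 with Cell Ranger, and deposited 1 table of raw UMI counts per gene and cell for each line, which pools its 4 samples and holds selected cells. Cells were assigned to samples by the deposited cell tables. How reads shared by several genes were counted is not given in the sources used here, and no doublet removal was stated or added. All 23914 cells were kept, and 24 symbols on several lines were summed.

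The members, gene lists and named genes were chosen with earlier results of these data known. Named members were the 15 with the highest mean CPM and those called in a comparison, and others named or plotted were added after their values were seen. Counts were summed per sample and 17897 genes passing filterByExpr were tested with edgeR 4.0.16 (TMM, quasi-likelihood test, group means, threshold 0.05 after Benjamini-Hochberg adjustment, R 4.3.3), which leaves 6 residual degrees of freedom. An alternative added the replicate number within line as a block, which leaves 3 for the changes within lines and the interaction. Between untreated lines the block was 1 term for the replicate number, common to all lines. Fits across lines held line and treatment in place of group means. They, and the block between untreated lines, leave more residual degrees of freedom. The replicate numbers are those of the labels, which do not say what they mark. Over 9630 genes the deviations of same-numbered samples from their group means correlated at r = 0.6549 in SCC1, 0.5896 in SCC6 and 0.7174 in SCC25, so the block is given beside each result that it changes. DESeq2 1.42.0 was another alternative. Tests were checked on simulated counts.

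For comparisons of cells, each cell was thinned to 15000 UMIs, which left out 851 cells, between 14 and 262 per sample. Levels within classes used all UMIs of the cells. Intervals are exact binomial (95%) and cover counting error only. Annotation came from RefSeq (GRCh38.p14) for 71 members and 66 promoters and from GENCODE transcripts for 68 members. A stem-loop was a 16-base run with GG first, CC last and at least 5 of 6 stem pairs.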

Additional observations from a re-analysis of the deposited data

Results flagged for a closer look

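Of the members, 4 passed the test for a difference in the change with cetuximab between lines with the replicate number as a block in edgeR. For HIST1H2BC the adjusted p was 0.0255, against 0.353 without the block, and its log2 change was 2.17 in SCC1 but 0.41 in SCC6 and 0.58 in SCC25. For HIST1H4C it was 0.0405, against 0.799 without the block, and the change was -1.29 in SCC1 but 0.04 in SCC6 and -0.69 in SCC25. For HIST1H2BJ it was 0.0444, against 0.353, and the change was 0.90 in SCC1 but -0.26 in SCC6 and -0.25 in SCC25. For HIST1H2AC it was 0.0479, against 0.628, and the change was 1.65 in SCC1 but 0.64 in SCC6 and 0.38 in SCC25. In DESeq2 the adjusted p was 0.00602 for HIST1H2BC, 0.00219 for HIST1H2BJ, 0.316 for HIST1H2AC and 0.72 for HIST1H4C. Groups of 2 samples allowed no search for outlying samples.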

How the results depend on the processing

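The number of members called with cetuximab depended on the fit. In SCC1 it was 11 with DESeq2, 10 with no low-count filter and 18 with the replicate block, against 0. In SCC6 it was 5, 3 and 11 under these alternatives, against 1. Across lines it was 11, 10 and 19, against 5. For the interaction it was 3, 1 and 4, against 0. In SCC25 it was 1 with the block, and between untreated SCC6 and SCC1 it was 20 with the block. With no low-count filter 65 members were tested. In that setting 243 of 25899 genes were called in SCC1, 1233 in SCC6, 1043 across lines and 248 for the interaction. Among the results of named members that were called with or without the block, the block ended no call and turned no direction. Leaving out 1 sample gave 0 to 1 calls in SCC1, 0 to 3 in SCC6, 0 in SCC25, 4 to 9 across lines, 4 to 8 for SCC6 minus SCC1, 9 to 12 for SCC25 minus SCC1 and 11 to 17 for SCC25 minus SCC6. Where a group was left with 1 sample, it was assumed to vary like the other groups.

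Without HIST1H4C the log2 change of the summed level turned to 0.43 in SCC1 and 0.18 in SCC25. With HIST1H4C kept and 1 sample left out, the change ranged from -0.75 to -0.16 in SCC1, from -0.059 (without cetuximab replicate 1) to 0.58 in SCC6, and from -0.58 to 0.20 (without PBS replicate 1) in SCC25. In SCC6 the change of HIST3H2BB ranged from -2.83 to 0.53 and that of HIST2H2BF from -2.22 to 0.25, both highest without PBS replicate 1. For SCC25 minus SCC6, HIST1H1D ranged from -1.71 to 0.032 (without SCC6 PBS replicate 1) and HIST1H1E from -1.34 to 0.047 (without SCC25 PBS replicate 2). The S-phase ratio of HIST1H4C was 1.43 against all cells outside the top 10%. The difference in the share of cells with HIST1H4C ranged from -11.7 to -4.72 percentage points without 1 sample, with p = 0.125 in an exact sign-flip test over 6 pairs. For single members named, 913 values under alternatives kept direction and side of the threshold, 110 gained a call, 61 lost one and 4 turned direction. The cause of these changes was not tested. With 2 samples per group and a median member level of 0.583 CPM, most members lie where small changes were not detectable.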
